A study of Mus musculus with 16 samples.

Results

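The axon guidance ligands and receptors described here are 47 genes of 4 families: Slit and Robo genes (5), netrins with their receptors and Dscam proteins (9), ephrins with Eph receptors (18) and semaphorins with plexins and neuropilins (15). They were taken by name from a list, and a gene was kept when 4 or more of the 16 striatal libraries held 10 or more counts of it. All 47 listed genes were kept, out of 19363 genes kept and 55450 genes in the count table. The list was drawn up with earlier results of these data known, so its shares beside those of all genes are a description.

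The study compared mice that performed well and mice that performed badly within a genotype, and asked which genes differed with performance in the striatum. Each library was 1 male C57Bl/6 mouse, 14 weeks old and untreated. Wild-type “good” mice 1 and 2 are labelled 8 and 8b, what the b marks is not stated, and they were taken as separate mice. Both genotypes, R6/1 and wild-type, had 4 “poor” and 4 “good” mice. The R6/1 line is a model of Huntington's disease (HD) and carries a transgene with exon 1 of human huntingtin and an expanded CAG repeat; the wild-type mice were their littermates without it. “Good” and “poor” were assigned from Z-scores of rotarod, feet clasping and body weight, by how many traits scored on either side of the average and by the mean score, so the 4 groups are extremes of a larger cohort of singly housed males, and intermediate mice are not among these samples. Counts per gene summed to between 16155356 and 24897354 per library. The 14 markers of medium spiny neurons, the projection neurons that define the striatum, were detected in every library. Their summed level lay between 7670 and 12021 CPM (counts scaled to the size of each library) in wild-type mice, between 2952 and 4756 in R6/1 “good” mice and between 1936 and 2840 in R6/1 “poor” mice. Markers of several other cell types were lower in R6/1 mice as well. Past the threshold were 9 of 10 microglial, 7 of 12 endothelial and mural, 6 of 11 astrocytic and 5 of 10 oligodendrocyte markers (all genes 17%), while 1 astrocytic marker was higher (all genes 17.2%). Other lists moved less. Of 12 cortical markers 2 were lower. Of 8 oligodendrocyte precursor and of 10 septal markers, 1 each was lower and 1 each higher. Of 10 ependymal and 9 tested hypothalamic markers 0 passed. In bulk tissue, fewer cells of a type and less RNA per cell cannot be told apart. Libraries are numbered, and numbers 1 to 8 held lower totals than numbers 9 to 16 without overlap. All 4 R6/1 “good” mice but only 1 of the 4 R6/1 “poor” mice, mouse 2, were among numbers 1 to 8, which the labels do not call a batch. Markers of hypothalamic neurons, which lie outside the striatum, summed to 54.6 CPM in R6/1 “poor” mouse 1 and 35.5 in mouse 3, above the range of 7.25 to 24.8 in the other 14 mice.

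Axon guidance genes encode secreted or membrane-bound cues and the receptors that read them. Slits repel growing axons through Robo receptors, netrins attract through Dcc and repel through Unc5 receptors, ephrins signal in both directions with Eph receptor kinases, and semaphorins act through plexins, often with a neuropilin as co-receptor. In the adult brain many of these genes stay expressed and take part in the shape and plasticity of synapses and dendritic spines.

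Against wild-type mice, guidance genes differed in both directions in the R6/1 striatum, and more of them were lower than higher. With all 8 R6/1 mice against all 8 wild-type mice, 16 of the 47 genes (34.0%) passed an adjusted p of 0.05 (edgeR, Benjamini-Hochberg over all genes tested), close to the 34.2% of all genes. Of these, 3 were higher (6.38% of the 47 genes, 17.2% of all genes) and 13 lower (27.7% and 17% respectively). In R6/1 “good” mice against the 8 wild-type mice, 9 genes (19.1%, all genes 24.6%) passed, with 0 higher (all genes 12.1%) and 9 lower (all genes 12.4%). At an unadjusted p under 0.05, 2 genes were higher there (all genes 19.4%), and DESeq2 called 0 higher (all genes 12.8%) and 13 lower (all genes 14%). In R6/1 “poor” mice 19 genes (40.4%, all genes 28.5%) passed, with 6 higher (12.8%, all genes 13.5%) and 13 lower (27.7%, all genes 14.9%). The median log2 fold change of the 47 genes was -0.05, -0.10 and -0.08 in these 3 comparisons, beside 0.02, 0.01 and 0.00 over all genes. The comparisons share the wild-type mice. Here and below, a gene passed where edgeR called it with all mice of the comparison. DESeq2 called the same genes, 16, 9 and 19 in turn (its shares of all genes were 35.8%, 26.9% and 30.9%), and besides them Efnb3, Ephb3, Ntn4 and Unc5b in R6/1 “good” mice and Efna5 in R6/1 “poor” mice.

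**Figure D1:**
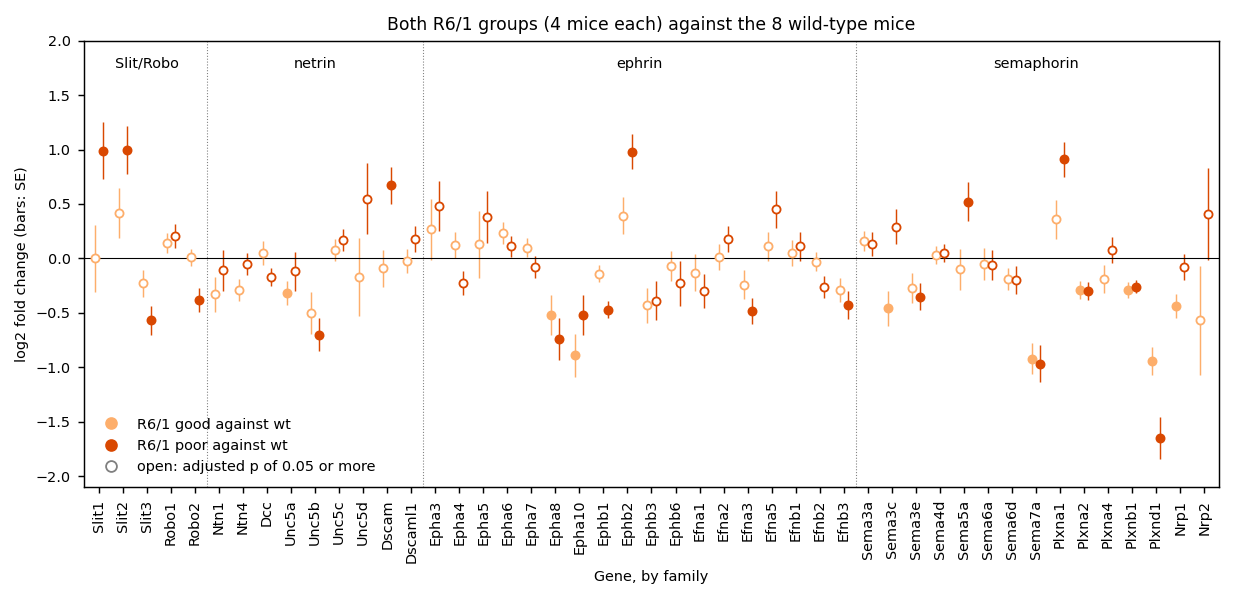
Log2 fold change with its standard error (y axis) of the 47 genes (x axis, by family) in R6/1 “good” and R6/1 “poor” mice, each against the 8 wild-type mice; filled points passed an adjusted p of 0.05. Filled points above 0 belong to R6/1 “poor” mice (Slit1, Slit2, Dscam, Ephb2, Sema5a and Plxna1), and the lowest points are those of Plxnd1, at -0.94 and -1.65.

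Promoters are printed for 4 genes, since the results below turn on them: Slit2 and Ephb2, which were higher in R6/1 “poor” mice, and Plxnd1 and Sema7a, which were lower in both R6/1 groups. Each is the 250 bases before the start of the gene in RefSeq (GRCm38.p6), 5′ to 3′ on the strand of the gene: chr5:47982905-47983154 (plus strand) for Slit2, chr4:136836013-136836262 (minus strand) for Ephb2, chr6:115995006-115995255 (minus strand) for Plxnd1 and chr9:57939862-57940111 (plus strand) for Sema7a. Capitals mark matches, on either strand, to the GC box GGGCGG, the TATA box TATAAA, the NF-Y box CCAAT and the cAMP response element TGACGTCA.
Slit2: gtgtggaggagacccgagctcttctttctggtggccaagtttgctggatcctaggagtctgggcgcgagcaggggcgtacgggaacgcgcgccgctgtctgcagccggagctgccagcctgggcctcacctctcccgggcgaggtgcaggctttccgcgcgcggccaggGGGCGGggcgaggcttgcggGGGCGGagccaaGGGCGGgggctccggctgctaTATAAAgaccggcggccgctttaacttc
Ephb2: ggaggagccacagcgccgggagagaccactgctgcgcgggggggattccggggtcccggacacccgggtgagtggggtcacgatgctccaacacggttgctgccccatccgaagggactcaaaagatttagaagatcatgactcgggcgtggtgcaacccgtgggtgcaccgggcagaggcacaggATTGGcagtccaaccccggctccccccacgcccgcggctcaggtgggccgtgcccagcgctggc
Plxnd1: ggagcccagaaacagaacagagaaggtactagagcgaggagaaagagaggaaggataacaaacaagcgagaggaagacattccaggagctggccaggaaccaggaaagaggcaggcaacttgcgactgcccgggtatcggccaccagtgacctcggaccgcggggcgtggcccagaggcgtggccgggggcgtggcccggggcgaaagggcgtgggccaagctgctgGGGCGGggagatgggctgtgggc
Sema7a: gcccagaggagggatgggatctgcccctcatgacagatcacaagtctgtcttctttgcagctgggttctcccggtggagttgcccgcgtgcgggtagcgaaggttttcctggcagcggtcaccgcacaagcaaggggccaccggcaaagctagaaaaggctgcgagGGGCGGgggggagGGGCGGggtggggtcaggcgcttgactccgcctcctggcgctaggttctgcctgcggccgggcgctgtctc
GC boxes stood in 32 of the 46 promoters that RefSeq gives for 38 of the 47 genes (69.6%), and in 32.7% of all promoters of the same length. The median GC content was 65.6% for these promoters and 52.4% for all, and the GC box is itself made of G and C. CCAAT was found in 12 (26.1%, all promoters 33.8%), TATAAA in 2 (4.35%, all 12.4%) and TGACGTCA in 0 (all 1.55%). These are matches of letters only. Slit2, Plxnd1 and Sema7a each held a GC box, and a link of these motifs to the direction of a change was not tested.

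Across the families, levels spanned almost 2 orders of magnitude. On the scale of CPM per kilobase of annotated exon, averaged over 16 mice, the medians of the families lay close together, at 4.68 for Slit and Robo, 3.69 for netrin, 3.59 for ephrin and 4.54 for semaphorin genes. Efnb3, an ephrin anchored in the membrane, had the highest level of all 47 genes at 60.7, followed by Sema7a, a semaphorin with a lipid anchor, at 29.6, and the receptor Epha4 at 22.4. The lowest were Ephb2 at 0.705, Slit2 at 0.799 and Epha3 at 0.853. Among Slit and Robo genes Robo2 (8.05) and Slit1 (5.0) were the highest, and Robo1 (3.82) stood next above Slit2. Unc5a (13.4) and Unc5b (7.04) led the netrin genes, with Unc5c (1.88) and Ntn4 (2.64) the lowest. In the semaphorin family Plxnd1 (14.2) followed Sema7a, while Nrp1 (1.61) and Sema5a (1.67) were the lowest. Lengths count every annotated exon of a gene, 25433 bases for Slit2, so a gene with long alternative exons reads low on this scale. The spread between mice of a group had a median coefficient of variation of 18.5% in wild-type “good”, 12.6% in wild-type “poor” and 16% in both R6/1 groups. Nrp2 varied most, with 70.8% in wild-type “good” and 60.8% in R6/1 “good” mice.

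**Figure D2:**
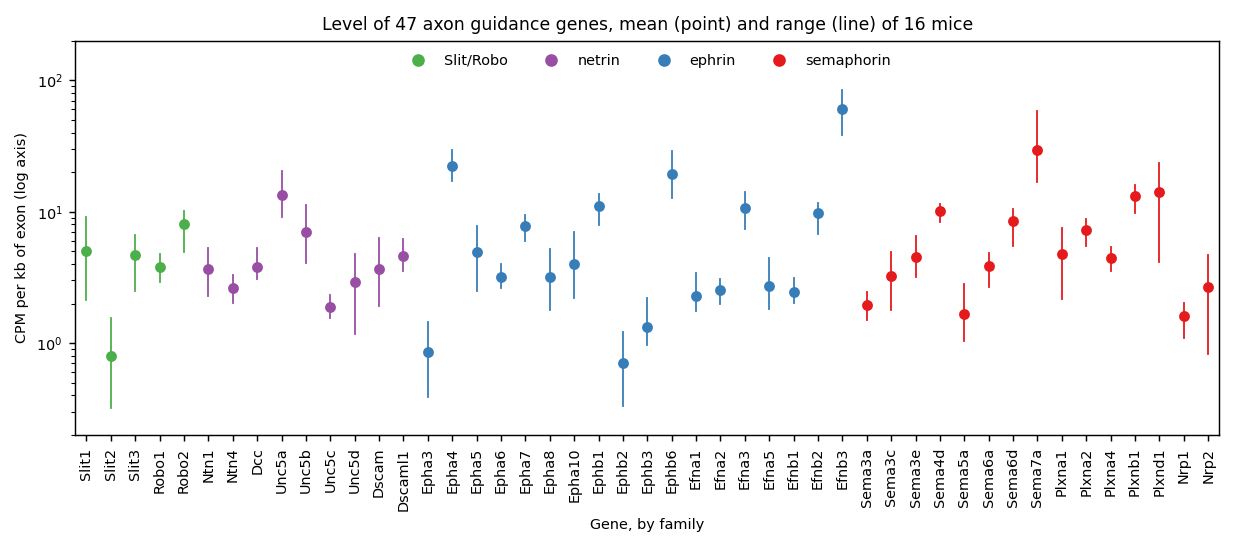
Level of each of the 47 genes in CPM per kilobase of exon (y axis, log scale), with the mean of 16 mice as a point and their range as a line, coloured by family. Efnb3 (60.7), Sema7a (29.6) and Epha4 (22.4) are the highest, and Ephb2 (0.705) is the lowest.

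The 3 Slit ligands did not move together: Slit1 and Slit2 were higher in R6/1 “poor” mice, whereas Slit3 was lower. Slit1 (chromosome 19, 41600257 to 41743665, GRCm38) measured 50.8, 31.2, 52.8 and 54.0 CPM in R6/1 “poor” mice 1 to 4. In R6/1 “good” mice it measured 35.4, 25.5, 20.4 and 13.4, and in the 8 wild-type mice it ran from 12.7 to 39.1 with a median of 22.7. Mice 1, 3 and 4 of the R6/1 “poor” group lay above every other mouse, and mouse 2 lay within the range of the others. The log2 fold change of Slit1 was 0.99 ± 0.26 (SE) in R6/1 “poor” mice against wild-type mice (47.2 ± 10.8 and 23.7 ± 8.57 CPM, SD, n = 4 and 8, adjusted p = 0.0123 in edgeR's model). For R6/1 “good” mice it was 0.00 ± 0.31 (adjusted p = 1).

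Slit2, the second ligand and the lowest of its family per kilobase, measured 39.2, 23.0, 34.0 and 25.8 CPM in R6/1 “poor” mice, and 27.4, 20.3, 19.0 and 14.8 in R6/1 “good” mice. Wild-type mice ran from 8.09 to 21.4 with a median of 15.7. All 4 R6/1 “poor” mice lay above all wild-type mice, and Slit2 rose by 1.00 ± 0.22 on the log2 scale (adjusted p = 0.00488) in that group and by 0.74 ± 0.21 over all 8 R6/1 mice (adjusted p = 0.0118). Its log2 fold change in R6/1 “good” mice was 0.42 ± 0.23 (adjusted p = 0.205). Slit3 measured 15.1, 23.5, 22.1 and 25.9 CPM in R6/1 “poor” mice and from 27.3 to 40.2 in wild-type mice. The groups did not overlap, and Slit3 fell by 0.57 ± 0.13 (adjusted p = 0.00576). R6/1 “good” mice, at 25.6, 27.8, 22.4 and 34.3 CPM, overlapped with wild-type mice (-0.23 ± 0.12, adjusted p = 0.175).

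Of the receptors, Robo2 was lower in R6/1 “poor” mice and Robo1 passed in no comparison. Robo2 measured 83.6, 116, 108 and 139 CPM in R6/1 “poor” mice and between 131 and 162 in wild-type mice. It fell by 0.38 ± 0.11 (adjusted p = 0.0148), with mouse 4 inside the wild-type range, and without R6/1 “poor” mouse 3 the value was -0.36 with an adjusted p of 0.0521. The log2 fold change in R6/1 “good” mice was 0.01 ± 0.08. Robo1 had 0.21 ± 0.11 in R6/1 “poor” (adjusted p = 0.168) and 0.14 ± 0.09 in R6/1 “good” mice (adjusted p = 0.258).

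Among netrin genes the ligands Ntn1 and Ntn4 passed in no comparison with wild-type mice, and 3 receptors did. Ntn4 had -0.29 ± 0.10 in R6/1 “good” mice with an adjusted p of 0.0515, and DESeq2 called it there (adjusted p = 0.0338). Unc5b, a repulsive netrin receptor, measured 32.4, 37.9, 28.4 and 32.1 CPM in R6/1 “poor” mice, all below the wild-type range of 40.1 to 70.8. It fell by 0.70 ± 0.15 (adjusted p = 0.00391), and by 0.60 ± 0.14 over all R6/1 mice (adjusted p = 0.00341). Its log2 fold change in R6/1 “good” mice, at 25.6, 32.5, 47.5 and 44.5 CPM, was -0.50 ± 0.19 (adjusted p = 0.0727). Unc5a, of the same group of receptors, measured 52.1, 52.1, 38.6 and 50.7 CPM in R6/1 “good” mice, just below the lowest wild-type mouse at 52.4, and fell by 0.32 ± 0.11 (adjusted p = 0.045). That call was lost in 7 of 12 fits that each left out 1 mouse, namely without any 1 of the 4 R6/1 “good” mice, wild-type “good” mouse 3 or wild-type “poor” mice 1 or 4 (range -0.35 to -0.22). R6/1 “poor” mice held both the lowest and the highest Unc5a values of all mice, 37.8 and 85.1 CPM in mice 1 and 4. Dcc, the attractive netrin receptor, ran from 40.2 to 69.2 CPM over all mice and passed in no comparison, and neither did Unc5c or Unc5d in a comparison with wild-type mice.

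Dscam, an adhesion molecule that also binds netrin and keeps neurites of a cell apart, was higher in R6/1 “poor” mice. It measured 56.0, 35.5, 50.5 and 40.3 CPM in R6/1 “poor” and 30.5, 26.8, 29.6 and 20.5 in R6/1 “good” mice, and 16.8 to 37.9 (median 28.8) in wild-type mice. R6/1 “poor” mouse 2 was the one that overlapped with wild-type mice. Dscam rose by 0.67 ± 0.17 (adjusted p = 0.0116), and without R6/1 “poor” mouse 1 the value was 0.56 with an adjusted p of 0.0524. Its paralog Dscaml1 had 0.18 ± 0.12 (adjusted p = 0.293).

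Over all R6/1 mice 4 of the 11 Eph receptors fell (Epha8, Epha10, Ephb1 and Ephb3; all genes 17%), 1 rose (Ephb2; all genes 17.2%) and 6 did not pass. Ephb2 (chromosome 4, 136647539 to 136835988), a receptor of B ephrins found at excitatory synapses, measured 15.3, 13.3, 12.3 and 12.3 CPM in R6/1 “poor” mice. It measured 8.28, 7.36, 9.99 and 9.59 in R6/1 “good” mice and 4.19 to 8.74 in wild-type mice, with counts from 91 to 357 per library. Every R6/1 “poor” mouse lay above every other mouse. Ephb2 rose by 0.98 ± 0.16 (13.3 ± 1.39 and 6.72 ± 1.60 CPM, SD, n = 4 and 8, adjusted p = 0.00054 in edgeR's model). The value in R6/1 “good” mice was 0.39 ± 0.17 (adjusted p = 0.113; 0.57 within libraries 1 to 8, adjusted p = 0.0234), and over all 8 R6/1 mice Ephb2 rose by 0.72 ± 0.16 (adjusted p = 0.00238).

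Ephb1, its close relative, went the other way. It measured 56.8, 61.5, 55.7 and 71.6 CPM in R6/1 “poor” mice, all below the wild-type range of 75.6 to 94.7, and fell by 0.47 ± 0.08 (adjusted p = 0.00066). Ephb1 had, at 69.4, 80.4, 71.9 and 87.4 CPM in R6/1 “good” mice, a value of -0.14 ± 0.08 (adjusted p = 0.196). Ephb3 passed over all R6/1 mice, with a fall of 0.41 ± 0.13 (adjusted p = 0.0244), and in R6/1 “good” mice by DESeq2 (adjusted p = 0.042) but not by edgeR (-0.43 ± 0.16, adjusted p = 0.0688). Over all R6/1 mice it stood at -0.32 without wild-type “good” mouse 4 (adjusted p = 0.0533). Ephb6, a family member without kinase activity, passed in no comparison and reached 109 CPM in R6/1 “poor” mouse 4, against 48.0 to 52.0 in the other 3 mice of that group.

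Epha10, like Ephb6 an Eph receptor without an active kinase, was the EphA receptor with the largest fall in R6/1 “good” mice. It measured 23.6, 17.0, 20.3 and 16 CPM there, below all wild-type mice (23.7 to 50.8), and fell by 0.89 ± 0.20 (adjusted p = 0.00707). R6/1 “poor” mice were closer together, at 23.7, 24.3, 27.0 and 24.5 CPM, and overlapped with wild-type mice. The fall there was 0.52 ± 0.18 (adjusted p = 0.049), a call kept only without wild-type “good” mouse 1 or 2 or wild-type “poor” mouse 3 among 12 fits that each left out 1 mouse (range -0.58 to -0.43). Epha8 fell by 0.52 ± 0.18 in R6/1 “good” (adjusted p = 0.0491) and 0.74 ± 0.19 in R6/1 “poor” mice (adjusted p = 0.0117). The first of these calls was kept only without wild-type “good” mouse 2, wild-type “poor” mouse 2 or R6/1 “good” mouse 3 (range -0.64 to -0.41), and without R6/1 “poor” mouse 3 the second stood at -0.64 with an adjusted p of 0.0506. Epha4, the most abundant Eph receptor per kilobase, had 0.12 ± 0.12 in R6/1 “good” and -0.23 ± 0.11 in R6/1 “poor” mice and passed in neither, nor did Epha3, Epha5, Epha6 or Epha7.

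Of the ephrins, Efnb3 and Efna3 were lower. Efnb3, the most abundant of the 47 genes per kilobase and a reverse-signalling partner of EphB receptors, measured 163, 194, 164 and 123 CPM in R6/1 “poor” mice and 172 to 267 in wild-type mice. It fell by 0.43 ± 0.13 (adjusted p = 0.02), and missed the threshold without R6/1 “poor” mouse 3 (-0.44, adjusted p = 0.0512) or mouse 4 (-0.32, adjusted p = 0.057). Efna3, tethered to the membrane by a lipid, measured 17.9, 23.5, 19.2 and 22.3 CPM in R6/1 “poor” mice, of which mouse 2 overlapped with the wild-type range of 22.5 to 34.6. Efna3 fell by 0.48 ± 0.12 (adjusted p = 0.00928). It shares 344 exon bases with Gm15998 on the opposite strand, which held 20 to 59 counts per library, and how the counting treated strand is not given in the sources used here. The other ephrins, Efna1, Efna2, Efna5, Efnb1 and Efnb2, passed in no comparison with wild-type mice. For Efna5 the value in R6/1 “poor” mice was 0.45 ± 0.17, with an adjusted p of 0.0572 by edgeR and 0.0368 by DESeq2.

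Sema7a showed the clearest difference of the 8 semaphorin ligands. This membrane-anchored semaphorin (chromosome 9, 57940112 to 57962865) measured 68.3, 69.8, 61.1 and 72.9 CPM in R6/1 “good” mice and 55.9, 56.2, 59.0 and 91.9 in R6/1 “poor” mice. Wild-type mice ran from 113 to 194 with a median of 118, so that no R6/1 mouse reached the wild-type range. Sema7a fell by 0.92 ± 0.14 in R6/1 “good” (adjusted p = 0.00034) and by 0.97 ± 0.17 in R6/1 “poor” mice (adjusted p = 0.00126).

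Sema3e, a secreted ligand of Plxnd1, fell by 0.31 ± 0.10 over all R6/1 mice (adjusted p = 0.0265) and by 0.35 ± 0.12 in R6/1 “poor” mice (adjusted p = 0.0465). It measured 37.4, 32.3, 35.0 and 41.6 CPM in R6/1 “poor” and 34.8 to 60.6 in wild-type mice, with overlap. The call in R6/1 “poor” mice was kept only without wild-type “good” mouse 4, wild-type “poor” mouse 4 or R6/1 “poor” mouse 4 (range -0.42 to -0.29), and that over all R6/1 mice was lost without wild-type “good” mouse 1 or 2, R6/1 “good” mouse 1 or R6/1 “poor” mouse 2 (range -0.36 to -0.25). Sema5a, a transmembrane semaphorin, was the only 1 of the 8 semaphorin ligands that rose in these comparisons. It measured 53.1, 36.0, 42.2 and 32.6 CPM in R6/1 “poor” mice and 19.3 to 38.5 in wild-type mice, with a log2 fold change of 0.52 ± 0.18 (adjusted p = 0.0483). That call was kept only without wild-type “good” mouse 3, wild-type “poor” mouse 4 or R6/1 “poor” mouse 4 (range 0.37 to 0.61). Sema3c, which is secreted and signals through neuropilins, passed in R6/1 “good” mice, at 16.3, 19.1, 20.2 and 12.7 CPM against 18.6 to 30.6 in wild-type mice. The fall was 0.46 ± 0.16 (adjusted p = 0.0457) and was lost in 7 of 12 such fits, namely without wild-type “good” mouse 2 or 3, wild-type “poor” mouse 2 or 4 or R6/1 “good” mouse 1, 2 or 4 (range -0.55 to -0.34). In R6/1 “poor” mice its value was 0.29 ± 0.16 (adjusted p = 0.188). Sema3a, Sema4d, Sema6a and Sema6d passed in no comparison with wild-type mice.

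Plexins held both the largest fall among the 47 genes and a rise in R6/1 “poor” mice. Plxnd1 (chromosome 6, 115954811 to 115995005), the receptor of Sema3e, measured 66.0, 81.3, 60.5 and 97.6 CPM in R6/1 “good” mice and 30.2, 49.1, 38.8 and 68.6 in R6/1 “poor” mice. All 8 lay below the wild-type range of 114 to 171, and 3 of 4 R6/1 “poor” mice lay below all R6/1 “good” mice. Plxnd1 fell by 0.94 ± 0.13 in R6/1 “good” (adjusted p = 0.00019) and by 1.65 ± 0.19 in R6/1 “poor” mice (46.7 ± 16.5 and 146 ± 18.9 CPM, SD, n = 4 and 8, adjusted p = 5.2e-05 in edgeR's model). The latter is a 3.14-fold lower level. The 14 markers of medium spiny neurons moved the same way, with a median log2 fold change of -1.31 in R6/1 “good” and -1.96 in R6/1 “poor” mice. Their part in the result was not tested.

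Plxna1 (chromosome 6, 89316314 to 89362620), a signalling partner of neuropilins for secreted semaphorins, measured 67.7, 60.5, 64.3 and 58.1 CPM in R6/1 “poor” mice. It measured 49.4, 44.3, 45.3 and 32.3 in R6/1 “good” mice and 19.5 to 42.0 in wild-type mice. Every R6/1 “poor” mouse lay above every other mouse, and Plxna1 rose by 0.91 ± 0.16 (adjusted p = 0.00121). Its value in R6/1 “good” mice was 0.36 ± 0.18 (adjusted p = 0.173). Plxna1 shares 970 exon bases with Gm26811 on the opposite strand, which held 5 to 53 counts per library against at least 424 for Plxna1. Plxna2 and Plxnb1 were lower by similar amounts in both R6/1 groups. Plxna2 fell by 0.29 ± 0.08 in R6/1 “good” (adjusted p = 0.0124) and 0.30 ± 0.08 in R6/1 “poor” mice (adjusted p = 0.012). Without R6/1 “poor” mouse 1 its value was -0.23 (adjusted p = 0.0529), and the call in R6/1 “good” mice was lost without mouse 2 or mouse 3 of that group (adjusted p of 0.0503 and 0.0511). Plxnb1, a receptor of Sema4d, fell by 0.29 ± 0.07 (adjusted p = 0.00902) and 0.26 ± 0.06 (adjusted p = 0.00685).

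Of the neuropilins, which bind secreted semaphorins, Nrp1 passed in R6/1 “good” mice and Nrp2 passed in no comparison with wild-type mice. Nrp1 measured 14.6, 10.7, 13.9 and 11.1 CPM in R6/1 “good” mice and 13.4 to 19.7 in wild-type mice, and fell by 0.44 ± 0.11 (adjusted p = 0.00834). That call was kept in all 12 fits that each left out 1 mouse, and was lost within libraries 1 to 8. In R6/1 “poor” mice, at 18.3, 15.4, 19.0 and 11.9, its value was -0.08 ± 0.12. Nrp2 ran from 12.1 to 55.9 CPM in wild-type mice and from 9.74 to 52.4 in R6/1 mice. Its standard errors, 0.50 in R6/1 “good” and 0.42 in R6/1 “poor” mice, left no difference detectable at this spread between mice.

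**Figure D3:**
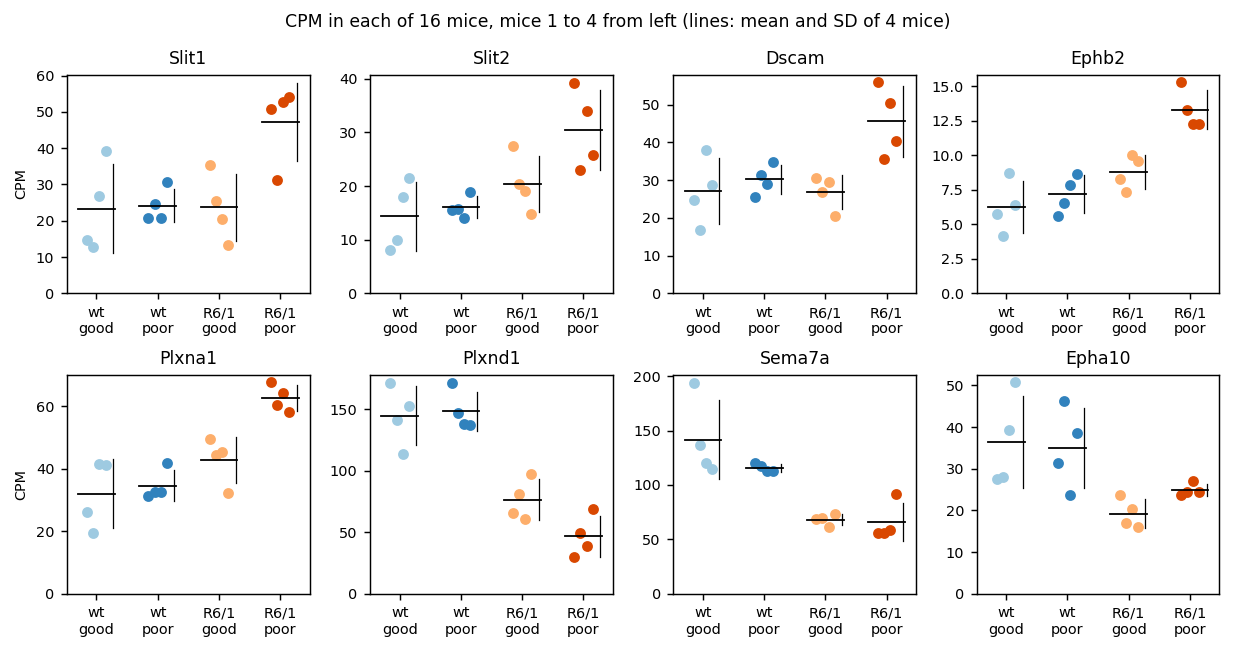
CPM (y axis, from 0) of 8 genes in each of the 16 mice by group (x axis), with the mean and SD of 4 mice as lines. Ephb2 and Plxna1 in R6/1 “poor” mice lie above all other mice, R6/1 mice of both groups lie below all wild-type mice for Plxnd1 and Sema7a, and R6/1 “poor” mouse 2 is the lowest of its group for Slit1 (31.2), Slit2 (23.0) and Dscam (35.5).

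R6/1 “poor” mice set against R6/1 “good” mice are the comparison closest to the question of the study, and edgeR called 0 of the 47 genes and 0 of all genes (smallest adjusted p of the 47 genes 0.242). At an unadjusted p under 0.05, 16 genes (34.0%) differed, beside 15.5% of all genes. Of these, 12 were higher in R6/1 “poor” mice (all genes 7.23%) and 4 lower (all genes 8.31%). DESeq2, the tool the study used, called 5 of the 47 genes and 1.86% of all genes, and all 5 were higher in R6/1 “poor” mice. They were Dscam (0.78 by DESeq2, adjusted p = 0.00424), Plxna1 (0.56, 0.00752), Ephb2 (0.61, 0.00758), Sema3c (0.77, 0.0145) and Slit1 (1.01, 0.0162). By edgeR the same genes had log2 fold changes of 0.77 ± 0.17, 0.55 ± 0.12, 0.59 ± 0.12, 0.76 ± 0.19 and 0.99 ± 0.30, with unadjusted p of 0.00114, 0.000814, 0.000655, 0.00291 and 0.00989 from the fit across all genes. The R6/1 groups did not overlap for Dscam, Plxna1, Ephb2, Sema3c or Epha10, and did for Slit1, for which mouse 1 of the R6/1 “good” group at 35.4 CPM lay above mouse 2 of the R6/1 “poor” group at 31.2. How many of all genes did not overlap between these groups was not counted, so this describes these genes only.

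The 4 genes with lower values in R6/1 “poor” mice were Plxnd1 (-0.71 ± 0.26), Robo2 (-0.39 ± 0.16), Epha4 (-0.35 ± 0.12) and Ephb1 (-0.33 ± 0.10). Besides the 5 genes above, Unc5d (0.72 ± 0.29), Sema5a (0.62 ± 0.20), Slit2 (0.58 ± 0.21), Epha10 (0.37 ± 0.12), Nrp1 (0.37 ± 0.16), Plxna4 (0.27 ± 0.11) and Ntn4 (0.25 ± 0.11) had higher values. None of these passed the adjustment. By family, semaphorin genes gave 5 higher and 1 lower, netrin genes 3 and 0, ephrin genes 2 and 2, and Slit and Robo genes 2 and 1. Sema7a, so clear against wild-type mice, had -0.05 ± 0.16 between the R6/1 groups (adjusted p = 0.906).

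The hypothalamic markers moved with part of this comparison. For 7 of the 47 genes (Slit2, Unc5d, Efna5, Sema3c, Sema5a, Plxna1 and Dscam) the 2 highest of all 16 mice were R6/1 “poor” mice 1 and 3, the mice with hypothalamic marker sums of 54.6 and 35.5 CPM. The share of all genes with these 2 mice highest was not counted, so this does not set the 47 genes apart. Sema3c, for example, measured 32.9 and 35.1 CPM there, and 30.6 in the next mouse. Markers of lateral septal neurons summed to 371 and 314 CPM in those mice against 231 and 177 in R6/1 “poor” mice 2 and 4 and 174 to 210 in R6/1 “good” mice. In wild-type mice the septal sum ran from 212 to 319, so that the sum of mouse 3 lay within that range. Sst, a large part of this sum, was lower in R6/1 mice (59.3 to 100 CPM) than in wild-type mice (128 to 164). In R6/1 “poor” mouse 3, Zic1 (70.3 CPM), Zic2, Zic4, Dlk1, Trpc4 and Prdm16 lay above every wild-type mouse. Nts and Crhr2 lay within the wild-type range there, and Ano2 and Sst below it. Of 12 hypothalamic markers, 6 were detected in every library, and Otp, Sim1, Avp, Oxt, Hcrt and Pmch were at 0 in at least 1. Trh was the largest part of the hypothalamic sum in R6/1 “poor” mice 1 and 3, at 23.8 and 14.6 CPM. There Trh, Otp, Sim1 and Avp lay above every other mouse. Nkx2-1 (5.56 and 5.39 CPM), Pomc and Oxt lay within the wild-type range in both, and Gal and Hdc in mouse 3. Agrp, Hcrt and Pmch reached at most 1.18 CPM in these mice. Slit1 was as high in R6/1 “poor” mouse 4 (54.0 CPM), where the hypothalamic sum was 8.39 and the sum of cortical markers was the highest of all mice, 1057 CPM. Without R6/1 “poor” mice 1 and 3, a choice made after seeing the data, the values against wild-type mice were 0.92 for Ephb2 (adjusted p = 0.0176), 0.83 for Plxna1 (0.0372), -0.35 for Ephb1 (0.038) and -1.31 for Plxnd1 (0.000777), all of which passed, as did Sema7a at -0.79. Slit1 then had 0.85 (0.17), Slit2 0.68 (0.147), Dscam 0.41 (0.268) and Sema5a 0.26 (0.515). In all, 5 of the 47 genes passed in that fit of 2 R6/1 “poor” mice, beside 9.33% of all genes, in place of 19. Without wild-type “good” mouse 4 and R6/1 “poor” mouse 4, the mice richest in cortical markers and also left out after seeing the data, 24 genes passed in R6/1 “poor” mice (all genes 28.1%), of which 17 were among the 19. Efnb3 and Epha10 were lost and Efna5, Epha4, Ephb3, Ephb6, Robo1, Unc5a and Unc5c were gained. Over all R6/1 mice 17 genes then passed (all genes 32.9%). The part of the marker-rich mice in these results was otherwise not tested.

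Library number gives another division. Within libraries 9 to 16, 3 R6/1 “poor” mice against 5 wild-type mice, 15 of the 47 genes passed (all genes 17.6%), among them Slit1 (1.19), Slit2 (1.10), Ephb2 (0.88), Plxna1 (0.91) and Plxnd1 (-1.56). Within libraries 1 to 8, R6/1 “poor” mouse 2 against 3 wild-type mice, 3 genes passed (all genes 2.17%), among them Ephb2 (1.17) and Plxnd1 (-1.75). In those libraries Plxna1 stood at 0.88, Dscam at 0.43 and Slit1 at 0.33. A single R6/1 “poor” mouse is assumed there to vary like the others. The 4 R6/1 “good” mice against the same 3 wild-type mice gave 7 genes (all genes 19.2%). Of the 9 genes called with all mice, Epha8, Nrp1, Plxna2, Sema3c and Unc5a were lost there, and Efna3, Ephb2 and Ephb3 were new. With this division as a covariate, Epha8, Plxna2 and Sema3c were lost, and Efna3, Ephb3 and Ntn4 were new. The cause was not tested. Between the R6/1 groups, libraries 1 to 8 gave 0.59 for Ephb2 and 0.50 for Plxna1, close to the values with all mice, and 0.39 for Slit1, 0.28 for Sema3c and 0.18 for Slit2.

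**Figure D4:**
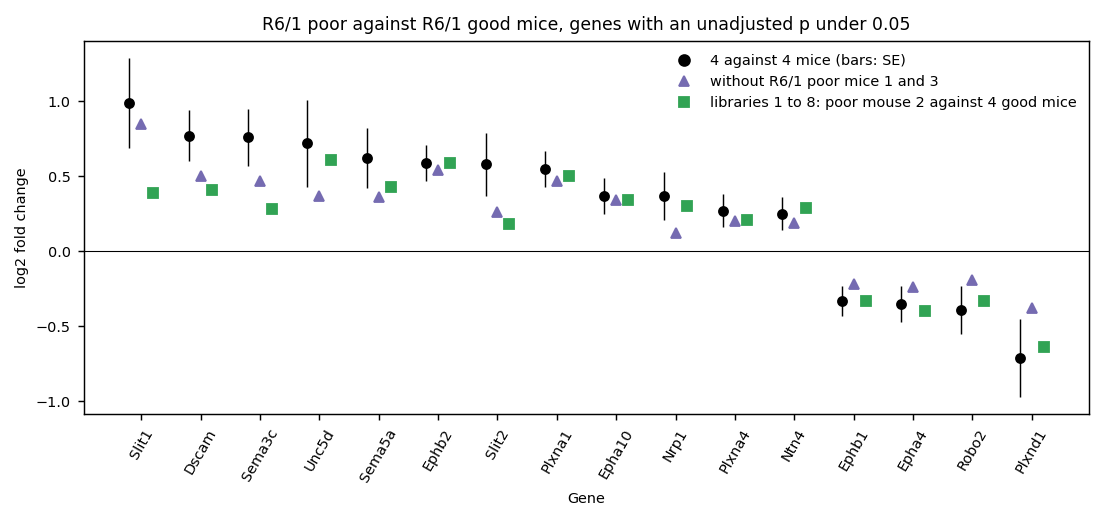
Log2 fold change of R6/1 “poor” against R6/1 “good” mice (y axis) of the 16 genes with an unadjusted p under 0.05 (x axis), with all 8 mice (circles, bars are standard errors), without R6/1 “poor” mice 1 and 3 (triangles) and within libraries 1 to 8 (squares). Ephb2 lies between 0.54 and 0.59 in the 3 settings, whereas Slit1 runs from 0.39 to 0.99. The settings are not independent: all hold the R6/1 “good” mice and R6/1 “poor” mouse 2, the only R6/1 “poor” mouse within libraries 1 to 8.

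Between wild-type “poor” and wild-type “good” mice, edgeR and DESeq2 each called 0 of the 47 genes and 0 of all genes. No member had an unadjusted p under 0.05, beside 2.45% of all genes. The 5 smallest p belonged to Sema7a (log2 fold change -0.29 ± 0.15, unadjusted p = 0.0709 in edgeR's model), Efnb2 (0.16 ± 0.09), Sema3a (0.18 ± 0.11), Slit3 (-0.18 ± 0.11) and Nrp1 (-0.17 ± 0.11). The interaction of genotype and performance tests whether the step from “good” to “poor” differs between R6/1 and wild-type mice. It was called by edgeR for 0 of the 47 genes and by DESeq2 for 0 of them, while DESeq2 called 1 gene of all (0.00516%). At an unadjusted p under 0.05, 6 of the 47 genes (12.8%) differed by edgeR, beside 5.77% of all genes. They were Nrp1 (0.54 ± 0.20), Ntn4 (0.40 ± 0.15), Sema3c (0.69 ± 0.28), Plxnd1 (-0.74 ± 0.30), Efnb2 (-0.38 ± 0.16) and Robo2 (-0.39 ± 0.18). For no gene of the 47 was the step in R6/1 mice shown to differ from that in wild-type mice.

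Other guidance genes, on lists written for this purpose, were also split in direction. Of 36 further ligands and receptors 34 were tested (Ntn5 and Efna4 were not), and with all 16 mice 7 rose and 9 fell in R6/1 mice (all genes 17.2% and 17%). Sema5b, a transmembrane semaphorin, fell by 0.85 ± 0.13 (18.3 and 32.9 CPM, adjusted p = 6e-05 in edgeR's model) and Flrt3, an adhesion ligand of Unc5 and Robo receptors, by 0.42 ± 0.07. Sema4c (-0.28 ± 0.07) and Epha2 (-0.54 ± 0.14), the latter at 1.35 CPM in R6/1 mice, fell as well. Chl1, a cell adhesion molecule that takes part in semaphorin responses, rose by 0.68 ± 0.13 (150 and 93.3 CPM), and Plxna3 by 0.58 ± 0.13. Between the R6/1 groups 0 of the 34 genes passed in edgeR, 8 had an unadjusted p under 0.05, all higher in R6/1 “poor” mice (all genes 7.23%), and DESeq2 called 3. The smallest unadjusted p belonged to the same 3 genes, Sema3d (0.64 ± 0.15), Chl1 (0.40 ± 0.12) and Plxnc1 (0.69 ± 0.19).

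Of 42 genes that act inside the cell below these receptors, 8 rose and 10 fell in R6/1 mice (all genes 17.2% and 17%). Chn1 (alpha-chimaerin) and Ngef (ephexin), which link EphA4 to the actin skeleton, fell by 0.90 ± 0.12 (349 and 652 CPM) and 1.15 ± 0.15 (275 and 613 CPM). The kinase Gsk3b (-0.31 ± 0.05) and the Eph-linked exchange factor Arhgef15 (-0.39 ± 0.08) fell as well, and Limk2, a kinase of the actin-severing protein cofilin, rose by 0.24 ± 0.04. In the comparison of the R6/1 groups edgeR called 0 of the 42 genes, 7 were higher and 2 lower in R6/1 “poor” mice at an unadjusted p under 0.05 (all genes 7.23% and 8.31%), and DESeq2 called 3 higher and 1 lower. The smallest unadjusted p were those of Farp1 (0.50 ± 0.09), Rnd1 (0.45 ± 0.12) and Limk1 (0.42 ± 0.12). In R6/1 “good” mice against wild-type mice 3 of the 42 rose and 7 fell (all genes 12.1% and 12.4%), and in R6/1 “poor” mice 7 rose and 8 fell (all genes 13.5% and 14.9%).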

How the data were processed

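Striatal RNA of 16 mice was sequenced after a stranded, poly(A)-based TruSeq library preparation. The authors deposited 1 table of raw read counts per gene for 16 libraries; the submitters' processing notes name CASAVA, Bowtie and TopHat 1.0.1, and the study's methods name the mouse build GRCm38. How reads were counted, with which strand setting and on which annotation release, is not stated in the sources read. Groups were taken from the labels, and mice were singly housed before testing. All 55450 identifiers matched GENCODE M21, from which symbols, positions and exon lengths (the union of annotated exons) came.

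A gene entered the tests when 4 or more libraries held 10 or more counts (19363 genes). The quasi-likelihood test of edgeR 4.0.16 (R 4.3.3, robust fit, TMM scaling over 16 libraries) was fitted for each comparison on its own mice across all of these genes, with Benjamini-Hochberg adjustment and a threshold of 0.05. Standard errors are the absolute log2 fold change divided by the square root of F. CPM are TMM-scaled. Tests were checked on counts simulated from the spread that edgeR itself fitted. Apart from depth, the simulated mice did not differ by library number or marker content, so the check cannot speak to those. Totals of 16155356 to 24897354 counts per library set the precision of low genes. Figures used Python 3.11.15, pandas 2.3.3 and matplotlib 3.10.9.

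The 47 genes, the lists of other guidance genes and the cell type markers were chosen with earlier results of these data known. Genes are named where edgeR called them, where their unadjusted p was among the 5 smallest of a comparison within a genotype or of the interaction, where they were the 2 highest or lowest per kilobase in a family, or as Slit1, Dscam and Ephb2. Of each list of other genes, up to 6 called in R6/1 against wild-type mice and up to 3 with the smallest p between R6/1 groups are named; 1 gene that this rule would name is not reported here. Others are named to account for every member, and the remaining genes with an unadjusted p under 0.05 because they are counted. Alternatives were DESeq2 1.42.0, RLE size factors, no filter or 50 counts, a replicate block, library number, a joint fit, wild-type mice of the same class and leaving out mice. Same-numbered mice did not deviate together, so numbers were not taken as pairs. Promoters are RefSeq entries, found for 38 of the 47 genes and not for Dcc, Ntn1, Dscaml1, Plxna4, Sema6a, Efnb3, Plxna1, Slit1 and Unc5d.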

Additional observations from a re-analysis of the deposited data

Results flagged for a closer look

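In 12 of 188 groups of 4 mice (6.38%), 1 mouse stood apart from the other 3 by a share of the range above the 95% critical value of Dixon's test. Chance gives about 1 in 20. Among Slit and netrin genes, Slit1 was 31.2 CPM in R6/1 “poor” mouse 2 (the next was 50.8), Ntn1 26.0 in R6/1 “good” mouse 1 (next 18.5), and Unc5a 78.5 in wild-type “good” mouse 4 (next 58.5) and 38.6 in R6/1 “good” mouse 3 (next 50.7). Among ephrin genes, Epha3 was 12.5 CPM in R6/1 “good” mouse 1 (next 6.37), Ephb3 6.59 in R6/1 “good” mouse 4 (next 7.74) and 10.3 in R6/1 “poor” mouse 4 (next 6.95), Ephb6 109 in R6/1 “poor” mouse 4 (next 52.0), Efnb1 10.1 in wild-type “good” mouse 4 (next 7.37) and Efnb2 77.5 in wild-type “poor” mouse 1 (next 73.8). Among semaphorin genes, Sema7a was 91.9 CPM in R6/1 “poor” mouse 4 (next 59.0) and Plxna1 42.0 in wild-type “poor” mouse 4 (next 32.7). R6/1 “poor” mouse 4 and wild-type “good” mouse 4, which account for 5 of these values, had the highest sums of cortical markers, 1057 and 1024 CPM against 253 to 759 in the other 14 mice. Their part in these values was not tested.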

How the results depend on the processing

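None of the 60 fold changes chosen by the naming rule, mostly for a call or a small p in these same mice, had the other sign under any alternative run. Of all 282 fold changes of the 47 genes, 111 did under at least 1, none of them called and all within 0.34 of 0 with all mice. Leaving out 1 mouse moved Slit1 in R6/1 “good” mice between -0.26 and 0.20, Robo2 there between -0.08 and 0.09, Nrp1 in R6/1 “poor” mice between -0.16 and 0.05 and Sema7a between the R6/1 groups from -0.25 to 0.02. For the 60 fold changes over all alternatives, 1226 values kept their side of the threshold, 154 fell short of it and 9 passed it newly. Of those kept, 93, 85 and 125 belonged to the R6/1 groups, the wild-type groups and the interaction, where edgeR called none of all genes. For R6/1, R6/1 “good” and R6/1 “poor” against wild-type mice, 409, 146 and 368 were kept and 23, 43 and 88 fell short. In R6/1 against wild-type mice, 5 genes were higher within libraries 9 to 16 (all genes 17.6% in either direction). Within libraries 1 to 8, 8 were lower (all genes 22.9% in either direction), and leaving out 1 mouse gave 3 to 5 higher and 12 to 14 lower. In R6/1 “good” mice, 1 gene (Ephb2) was higher within libraries 1 to 8 (all genes 19.2% in either direction) and 1 (also Ephb2) with the replicate block. Against wild-type “good” mice alone 5 were lower, and leaving out 1 mouse gave 0 to 1 higher and 5 to 10 lower. In R6/1 “poor” mice, 2 were higher and 3 lower without R6/1 “poor” mice 1 and 3 (all genes 9.33% in either direction, 28.5% with all mice). Leaving out 1 mouse gave 4 to 8 higher and 8 to 15 lower. Fewer of all genes passed in these smaller fits as well. For the replicate block, the missing filter, wild-type mice of 1 class and single mice left out, shares of all genes are not given. Between the R6/1 groups, 5 genes were higher by DESeq2, 2 without a filter on low counts (Ephb2 and Plxna1), and with the replicate block 2 were higher (Dscam and Plxna1) and 1 lower (Plxnd1). The cause of these changes was not tested, beyond fewer mice in some fits. Same-numbered mice shared only a number: their deviations correlated between -0.346 and 0.174, and not every mouse correlated best with its own number. Fits within libraries 9 to 16 held no R6/1 “good” mouse. Leaving out wild-type “good” mouse 4 and R6/1 “poor” mouse 4, also chosen after seeing the data, gave 17 genes called in R6/1 against wild-type mice and 24, in place of 19, in R6/1 “poor” mice. Of the 24 genes that passed in no comparison, 11 passed against wild-type mice under at least 1 alternative: Dcc, Efna1, Efna5, Efnb2, Epha3, Epha4, Epha6, Ephb6, Ntn4, Robo1 and Unc5c. Depth limits genes such as Epha3 (at least 65 counts per library) and Efna1 (at least 66) most.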
